A study of Mus musculus with 9 samples.

Results

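Glucose enters a cell through facilitative transporters, is phosphorylated by a hexokinase and is split in the cytosol to pyruvate. Pyruvate is then either reduced to lactate by lactate dehydrogenase and carried out by monocarboxylate transporters, or oxidised in mitochondria by the pyruvate dehydrogenase (PDH) complex, which PDH kinases switch off by phosphorylation. The RNA of 35 genes of this route, of 23420 genes in the table, was compared between cultured cells of mouse ankle synovium, the tissue that lines a joint. The 35 genes are given by a list of symbols of the pathway. The rule itself uses no measured value, but the list was chosen with earlier results of these data known. They code for 3 glucose transporters, 3 hexokinases, the enzymes from glucose-6-phosphate to pyruvate with 4 enzymes that make and remove fructose-2,6-bisphosphate (the PFKFB enzymes), 2 lactate dehydrogenase subunits, 2 monocarboxylate transporters, 4 PDH kinases and 3 subunits of the PDH complex. Activated macrophages are known for a strong use of glycolysis, and fibroblasts of inflamed joints have been described as glycolytic cells.

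The study set arthritis-derived synovial fibroblasts (ADSF) and normal ankle synovial fibroblasts (NDSF) against each other and against arthritis-derived synovial macrophages (ADSM), with 3 libraries in each group. ADSF and ADSM came from ankles of C57BL/6 mice with collagen antibody-induced arthritis (CAIA), a model in which antibodies to cartilage collagen and lipopolysaccharide inflame the joint, and NDSF came from ankles of C57BL/6 mice without arthritis. All were primary cultures at passage 1 in the same serum-containing DMEM Glutamax medium, without conditioned medium of another cell. The fibroblasts were the cells that attached to collagen. The macrophages came from the cells that did not attach to collagen. They attached to an uncoated dish and stayed on it when trypsin removed fibroblastic cells. The paper gives a longer culture for the macrophages than for the fibroblasts, so culture time and cell type cannot be told apart. No group of macrophages from normal ankles was measured, so cell type and ankle were not crossed. The study describes its cultures as made from separate ankles. Which ankle or mouse gave which library is not stated, so a p-value speaks only of the spread over the libraries measured.

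The libraries held 2380483 to 3351184 reads assigned to genes. Values are read counts divided by a TMM factor for each library, so that a value of 1 is close to 1 read (0.854 to 1.24 per read), and they compare a gene between libraries. Of 12 fibroblast markers, all 12 were higher in ADSF and in NDSF than in ADSM, and all 12 macrophage markers were lower. The macrophage markers were nonetheless above 0 in the fibroblasts, with a summed value of 965 to 1781 in ADSF and 1055 to 2378 in NDSF, against 43490 to 46130 in ADSM. Skeletal muscle markers summed to 82.2 to 130.0 in ADSF, 1215 to 3096 in NDSF and 75.7 to 121 in ADSM. Library 3 of NDSF stood apart from the other NDSF libraries, with a chi-square per degree of freedom of 21.0 and 16.5 against them, where the others had 1.71 between them. The study describes female mice, but 4 Y-linked genes summed to 0 in every ADSF and NDSF library and to 337 to 469 in ADSM, and Xist was 2721 to 2891 in ADSF, 1872 to 2477 in NDSF and 0 to 3.42 in ADSM. Cell type and sex or source therefore cannot be told apart in comparisons with ADSM. The genes of 4 members, Pfkfb1, Pgk1, Pdk3 and Pdha1, lie on the X chromosome.

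In total, the 35 genes took 0.722% ± 0.058 of the reads in ADSF and 0.591% ± 0.027 in NDSF, against 1.93% ± 0.15 in ADSM (SD, n = 3 each). The single libraries were at 0.662%, 0.778% and 0.726% in ADSF, 0.572%, 0.580% and 0.622% in NDSF and 2.00%, 1.75% and 2.02% in ADSM. The exact binomial 95% interval, which covers counting error only, was 0.767 to 0.789% for the highest ADSF library and 1.74 to 1.77% for the lowest ADSM library. Every macrophage library thus gave a larger share of its reads to these genes than any fibroblast library, and the lowest ADSF library was above the highest NDSF library. This share is weighted to the most abundant members, so it does not describe each of the 35 genes. Pkm alone had 17040 reads in ADSF, 15267 in NDSF and 54417 in ADSM, each summed over 3 libraries. In bulk RNA, fewer cells of a type and less RNA per cell cannot be told apart.

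Group differences were tested with limma on log2(value + 1) over 11889 genes, in 1 model of the 9 libraries, and a gene was called at an adjusted p under 0.05. All 35 members passed the filter on low values, 26 of them with a value of at least 10 in all 9 libraries. The other 9 reached 10 in some libraries only, 4 of them in no ADSM library and 1 in ADSM alone. In ADSF compared with ADSM, 7 members were called higher and 22 lower, beside 41.0% of all tested genes called higher and 30.1% lower (71.1% in either direction), and the median log2 difference was -0.84 over the members and 0.14 over all tested genes. In NDSF compared with ADSM, 7 were higher and 21 lower, beside 43.3% and 32.0% of all tested genes (75.4% in either direction), with a median of -1.03 over the members and 0.18 over all tested genes. In ADSF compared with NDSF, 6 were higher and 3 lower, beside 9.88% and 11.3% of all tested genes (21.2% in either direction), with a median of 0.01 over the members and -0.01 over all tested genes. Among the 26 members with at least 10 everywhere, the counts were 3 higher and 18 lower in ADSF against ADSM, 3 higher and 17 lower in NDSF against ADSM, and 5 higher and 2 lower in ADSF against NDSF. The comparisons with ADSM share the ADSM libraries. The same 20 members were lower and the same 7 higher in both fibroblast groups than in ADSM, and 5 members, Slc2a1, Pfkfb1, Pfkfb2, Pfkfb3 and Dlat, were called in no comparison of this model.

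**Figure D1:**
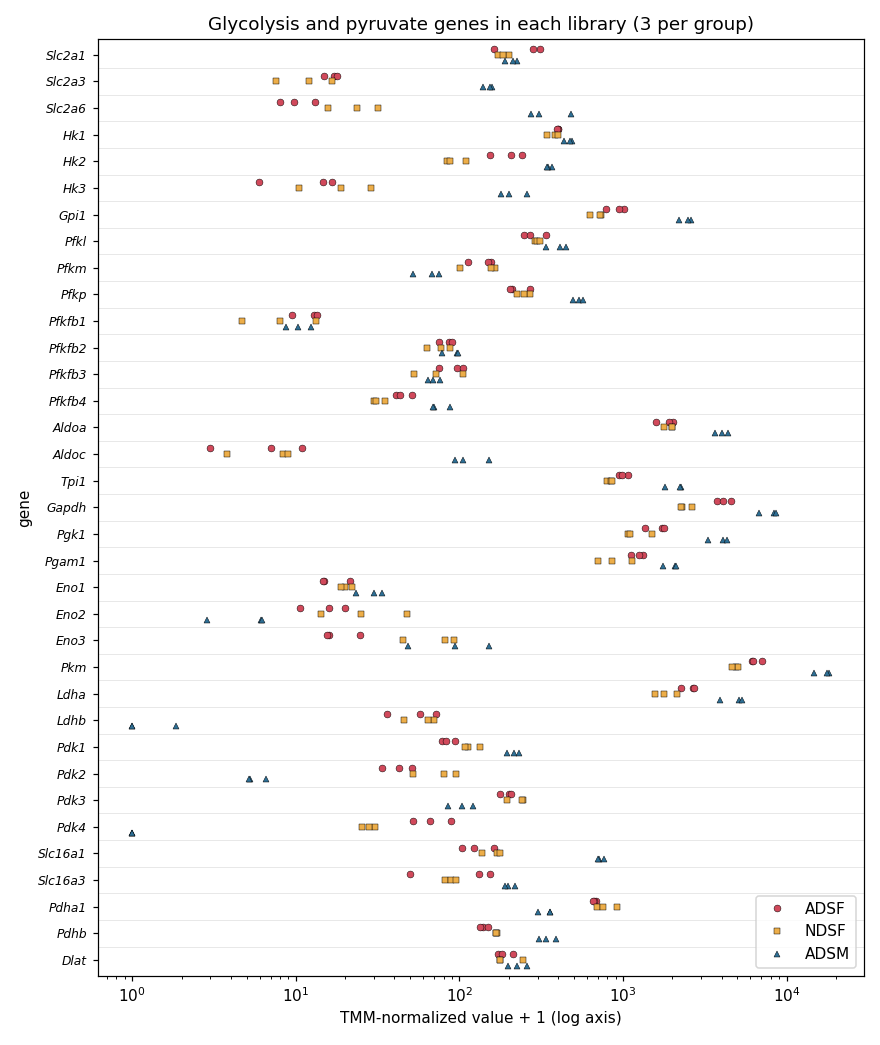
TMM-normalized value plus 1 on a log axis for each of the 35 genes, with 1 symbol per library (ADSF circles, NDSF squares, ADSM triangles, 3 each). The ADSM triangles lie to the right of both fibroblast groups for most enzymes of the main chain, such as Pkm at 14790 to 18070 in ADSM, and to the left for Pdk4 and Ldhb, which were at 0 and at most 0.854 in ADSM.

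**Figure D2:**
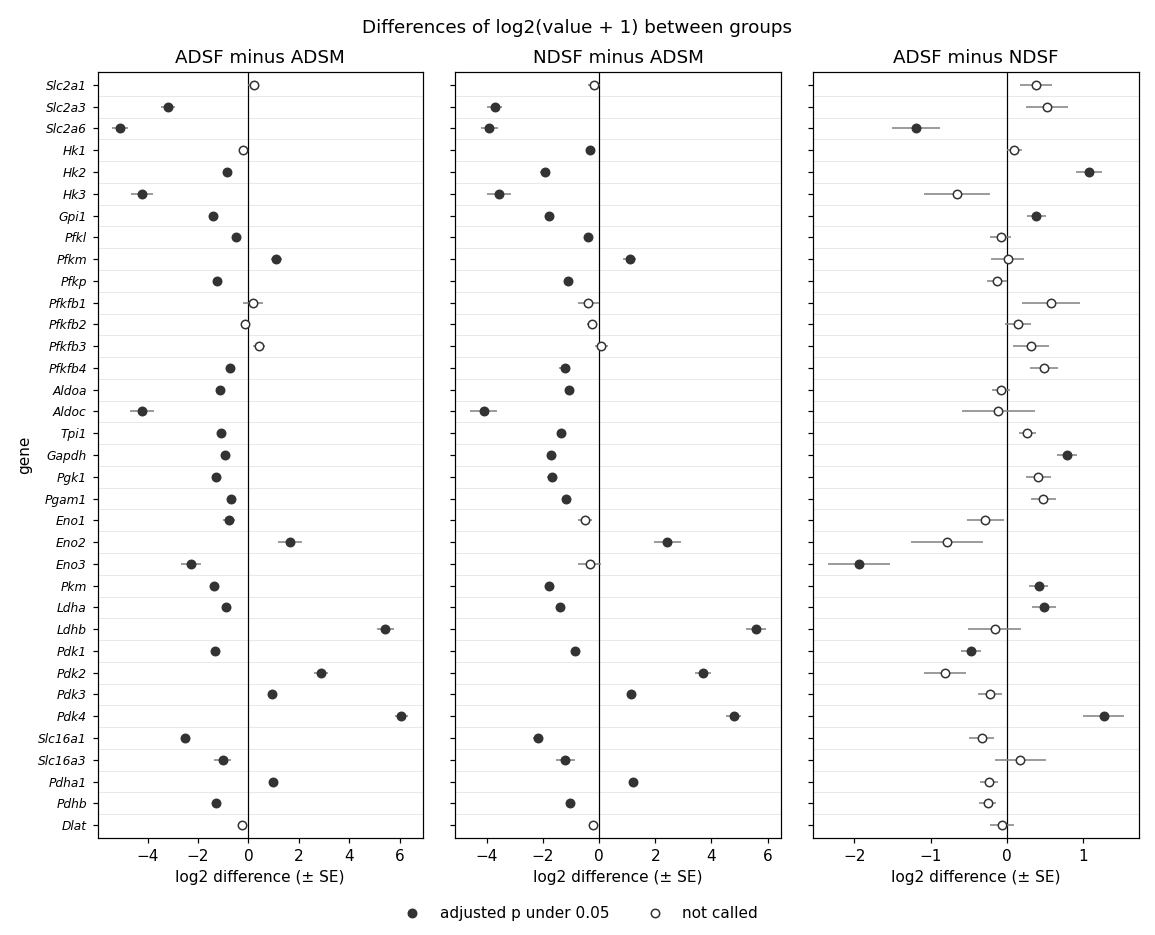
Difference of log2(value + 1) with its SE from limma, on the horizontal axis, for each gene in ADSF minus ADSM, NDSF minus ADSM and ADSF minus NDSF; filled circles had an adjusted p under 0.05. The panel of ADSF minus ADSM has 22 filled circles left of 0 and 7 right of it, that of NDSF minus ADSM 21 left and 7 right, and that of ADSF minus NDSF, on a narrower scale, 3 left and 6 right.

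Among the 3 glucose transporter genes of the list, the most abundant RNA differed between fibroblasts and macrophages. Glucose uptake was not measured in these libraries, and other sugar transporters are not counted in the shares below. Slc2a1, which codes for the widespread transporter GLUT1, lay at 161 to 309 in ADSF, 172 to 199 in NDSF and 189 to 225 in ADSM, and was called in no comparison. The highest ADSF values were above all others, but the lowest was below the lowest ADSM library, so the groups overlapped. Without ADSF replicate 1 the log2 difference was 0.50 against ADSM (adjusted p = 0.00704) and 0.67 against NDSF (adjusted p = 0.0103). Slc2a3, which codes for the high-affinity transporter GLUT3, had 13.9, 16.2 and 16.8 in ADSF and 15.7, 11.0 and 6.57 in NDSF, against 158, 154 and 138 in ADSM. Slc2a6, a transporter of lysosomal membranes described in macrophages, had 6.95, 8.71 and 12.0 in ADSF and 14.7, 31.0 and 22.5 in NDSF, against 273, 479 and 304 in ADSM. Neither gene's fibroblast values came near the ADSM values. The log2 difference was -3.18 ± 0.27 (SE) in ADSF and -3.72 ± 0.27 in NDSF for Slc2a3, and -5.09 ± 0.31 in ADSF and -3.91 ± 0.31 in NDSF for Slc2a6, with adjusted p of at most 1.3e-06. When the values were divided by gene length, Slc2a1 made up 91.9% ± 1.7 of the summed value of the 3 transporters in ADSF and 84.2% ± 4.3 in NDSF, against 29.3% ± 6.6 in ADSM, where Slc2a6 led with 57.2% ± 8.5 (SD, n = 3 each).

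Of the hexokinases, which trap glucose as glucose-6-phosphate, Hk1 is the common form, Hk2 the inducible form bound to mitochondria, and Hk3 a form of blood and myeloid cells. Hk1 was the most even, with 399, 400 and 394 in ADSF, 380, 397 and 341 in NDSF and 489, 433 and 476 in ADSM. Its log2 difference was -0.23 ± 0.10 in ADSF (adjusted p = 0.0549) and -0.32 ± 0.10 in NDSF (adjusted p = 0.0102) against ADSM, although no fibroblast library reached the lowest ADSM library. The ADSF difference of Hk1 passed the threshold with upper-quartile scaling (log2 difference -0.38, adjusted p = 0.00486), with CPM of the whole reads recovered from the values, which scales by library total alone (-0.55, adjusted p = 1.99e-04), with only ADSF and ADSM in the model (adjusted p = 0.0376), and without ADSM replicate 2 or NDSF replicate 3 (adjusted p = 0.0334 and 0.0262). Hk2 (mm10 chr6:82725027-82774454, minus strand) had 152, 239 and 206 in ADSF and 82.8, 85.9 and 109 in NDSF, against 369, 345 and 342 in ADSM. The groups did not overlap for Hk2 and were ordered with NDSF lowest, ADSF between and ADSM highest. The log2 difference was -0.84 ± 0.17 in ADSF (adjusted p = 9.98e-04) and -1.93 ± 0.17 in NDSF (adjusted p = 1.48e-06) against ADSM, and 1.08 ± 0.17 between ADSF and NDSF (adjusted p = 0.00258). Hk3 had 4.96, 13.7 and 15.6 in ADSF and 27.6, 18.0 and 9.39 in NDSF, against 201, 258 and 178 in ADSM, with log2 differences of -4.22 ± 0.43 in ADSF (adjusted p = 5.84e-06) and -3.56 ± 0.43 in NDSF (adjusted p = 2.05e-05). The lowest Hk3 value of each fibroblast group was in the library with the lowest sum of macrophage markers, 965 in ADSF replicate 1 and 1055 in NDSF replicate 3. The same held for Slc2a3 (13.9 and 6.57) and, in ADSF, for Slc2a6 (6.95). In NDSF, Slc2a6 was lowest in replicate 1 (14.7), the library with the highest marker sum (2378). The part of remaining macrophage RNA in the fibroblast values of Hk3, Slc2a3 and Slc2a6 was not tested. Per length, Hk1 took 69.3% ± 5.3 of the hexokinase sum in ADSF and 78.6% ± 1.9 in NDSF, against 44.6% ± 3.7 in ADSM, where Hk2 and Hk3 took 27.5% ± 1.1 and 27.9% ± 4.7.

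Phosphofructokinase commits sugar to glycolysis and is built from liver (Pfkl), muscle (Pfkm) and platelet (Pfkp) type subunits. Pfkp had 207, 203 and 271 in ADSF and 269, 249 and 223 in NDSF, against 536, 490 and 566 in ADSM. Pfkl had 247, 268 and 338 in ADSF and 288, 295 and 310 in NDSF, against 444, 336 and 410 in ADSM. Pfkm had 154, 112 and 149 in ADSF and 164, 154 and 99.5 in NDSF, against 74.3, 50.9 and 67.3 in ADSM. The muscle-type subunit was thus higher in every fibroblast library than in any ADSM library, and the platelet type lower. For Pfkm the log2 difference against ADSM was 1.10 ± 0.22 in ADSF (adjusted p = 0.00102) and 1.09 ± 0.22 in NDSF (adjusted p = 9.89e-04), and for Pfkp it was -1.23 ± 0.13 in ADSF (adjusted p = 8.17e-06) and -1.10 ± 0.13 in NDSF (adjusted p = 1.81e-05). For Pfkl it was -0.48 ± 0.14 in ADSF (adjusted p = 0.00954) and -0.41 ± 0.14 in NDSF (adjusted p = 0.0214). The NDSF call of Pfkl was lost without NDSF replicate 1 or 2 or ADSM replicate 1 or 3 (adjusted p = 0.0567, 0.0543, 0.0856 and 0.0665). Per length, Pfkm was 25.5% ± 3.8 of the 3 subunits in ADSF and 24.1% ± 4.5 in NDSF, against 8.01% ± 0.76 in ADSM. Within NDSF, replicate 3 had both the lowest Pfkm value and the lowest sum of muscle markers (1215, against 3096 and 2376 in replicates 1 and 2). The muscle sum was 82.2 to 130.0 in ADSF, and the part of muscle RNA in the Pfkm values was not tested.

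The PFKFB enzymes set the level of fructose-2,6-bisphosphate, an activator of phosphofructokinase. Pfkfb1, Pfkfb2 and Pfkfb3 were called in no comparison of groups. Pfkfb1, a form first known from liver, was near the limit of detection, with 8.41 to 12.5 in ADSF, 3.68 to 12.2 in NDSF and 7.69 to 11.4 in ADSM. Pfkfb2 lay at 73.5 to 89.0 in ADSF, 62.0 to 86.9 in NDSF and 77.6 to 96.5 in ADSM. Pfkfb3, the form with the highest kinase activity, lay at 74.4 to 105 in ADSF, 51.6 to 104 in NDSF and 63.2 to 74.7 in ADSM. The ranges of these 3 genes overlapped between all groups, and their largest log2 difference in any comparison was 0.58 ± 0.38, for Pfkfb1 between ADSF and NDSF. That difference was 0.95 without NDSF replicate 3 (adjusted p = 0.0488). With CPM of the recovered reads Pfkfb2 was called lower against ADSM, at a log2 difference of -0.43 in ADSF (adjusted p = 0.0312) and -0.52 in NDSF (adjusted p = 0.0128). Pfkfb4, known as a gene induced by hypoxia, had 39.7, 42.3 and 50.5 in ADSF and 34.1, 29.0 and 30.03 in NDSF, against 69.2, 67.5 and 86.0 in ADSM. Its log2 difference was -0.73 ± 0.18 in ADSF (adjusted p = 0.00362) and -1.23 ± 0.18 in NDSF (adjusted p = 8.91e-05), and its share of the family per length was 28.9% ± 1.9 in ADSF and 25.9% ± 1.7 in NDSF, against 44.2% ± 4.9 in ADSM.

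Slc2a1, Pfkfb1 and Pfkfb3 were the members that the study also measured by RT-qPCR, in macrophages given conditioned media, and the primers are shown because they fix which part of each transcript that other readout saw. Each pair was found in transcripts of its own gene alone in GENCODE, on the opposite strands at a distance that gives a product. The product was 156 bases long in 4 Slc2a1 transcripts, 119 bases in 3 Pfkfb1 transcripts and 88 to 237 bases in 14 Pfkfb3 transcripts. The forward primer is given first for each gene.
Slc2a1 forward: cagttcggctataacactggtg
Slc2a1 reverse: gcccccgacagagaagatg
Pfkfb1 forward: atgagctgccctatctcaagt
Pfkfb1 reverse: gtcccggtgtgtgttcacag
Pfkfb3 forward: cccagagccgggtacagaa
Pfkfb3 reverse: ggggagttggtcagcttcg
The RT-qPCR values themselves were not used here, and the RNA-seq libraries hold no culture with conditioned medium.

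The 8 most abundant enzymes of the chain from glucose-6-phosphate to lactate moved together between macrophages and fibroblasts. Gpi1, which turns glucose-6-phosphate to fructose-6-phosphate, had 789, 1013 and 941 in ADSF and 733, 722 and 630 in NDSF, against 2586, 2196 and 2503 in ADSM. Aldoa, the main aldolase, had 1593, 2010 and 1906 in ADSF and 1992, 1979 and 1783 in NDSF, against 4405, 3639 and 4007 in ADSM. Tpi1, which interconverts the triose phosphates, had 943, 1064 and 987 in ADSF and 792, 842 and 849 in NDSF, against 2266, 1799 and 2243 in ADSM. In each of these the lowest ADSM library was above every fibroblast library. Gapdh, the enzyme of the oxidation step, had 3748, 4539 and 4103 in ADSF and 2284, 2258 and 2624 in NDSF, against 8313, 6770 and 8551 in ADSM. Pgk1, the first enzyme to yield ATP, had 1355, 1740 and 1777 in ADSF and 1069, 1106 and 1507 in NDSF, against 4103, 3314 and 4295 in ADSM. Pgam1, a phosphoglycerate mutase, had 1110, 1316 and 1243 in ADSF and 699, 855 and 1127 in NDSF, against 2089, 1754 and 2111 in ADSM. Here too no fibroblast library reached an ADSM library, and ADSF and NDSF overlapped for Pgk1 and Pgam1 but not for Gapdh. Pkm, pyruvate kinase and the most abundant of the 35 genes, had 6157, 7036 and 6231 in ADSF and 4919, 5012 and 4603 in NDSF, against 18070, 14790 and 17770 in ADSM. Ldha, the subunit of lactate dehydrogenase that dominates in glycolytic tissues, had 2258, 2664 and 2706 in ADSF and 1557, 1769 and 2147 in NDSF, against 5107, 3908 and 5361 in ADSM.

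All 8 were lower in both fibroblast groups, within a narrow span. The log2 differences against ADSM lay between -1.41 (Gpi1) and -0.70 (Pgam1) in ADSF, with adjusted p of at most 0.00262, and between -1.80 (Gpi1 and Pkm) and -1.06 (Aldoa) in NDSF, with adjusted p of at most 5.59e-05. For Pkm they were -1.38 ± 0.12 in ADSF (adjusted p = 1.99e-06) and -1.80 ± 0.12 in NDSF (adjusted p = 2.09e-07). For Gapdh they were -0.93 ± 0.13 in ADSF (adjusted p = 6.72e-05) and -1.72 ± 0.13 in NDSF (adjusted p = 4.03e-07). As a level per kilobase of gene, Pkm and Gapdh were close to each other in ADSM (6494 ± 696.5 and 6395 ± 785), whereas Gapdh was above Pkm in ADSF (3352 ± 322 and 2491 ± 188) and near it in NDSF (1939 ± 166 and 1864 ± 82.6). Gapdh is widely used as a reference gene, and here it differed in all 3 comparisons. Several of these genes have processed pseudogenes that are near copies, and the sources used here do not say how reads shared with such copies were assigned. Aldoc, the brain-type aldolase, was low in fibroblasts, with 1.99, 9.96 and 6.01 in ADSF and 7.36, 7.99 and 2.82 in NDSF, against 150, 92.4 and 104 in ADSM. Its log2 difference was -4.22 ± 0.48 in ADSF (adjusted p = 1.41e-05) and -4.11 ± 0.48 in NDSF (adjusted p = 1.56e-05), and per length it was 2.95% ± 0.48 of the aldolase sum in ADSM.

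The promoters of 6 members are shown as sequence because these genes stood at either side of the comparison with ADSM: Ldha, Pgk1 and Hk2 were lower in both fibroblast groups, and Pdk2, Pdk4 and Ldhb were higher. Each line gives the 250 bases before the RefSeq start site on GRCm38.p6, 5′ to 3′ on the gene's strand. Capitals mark ACGTG on either strand, the core letters of the element that hypoxia-inducible factors bind; where CACGTG stands, which reads the same on both strands, both matches overlap.
Ldha, chr7:46845554-46845803, plus strand: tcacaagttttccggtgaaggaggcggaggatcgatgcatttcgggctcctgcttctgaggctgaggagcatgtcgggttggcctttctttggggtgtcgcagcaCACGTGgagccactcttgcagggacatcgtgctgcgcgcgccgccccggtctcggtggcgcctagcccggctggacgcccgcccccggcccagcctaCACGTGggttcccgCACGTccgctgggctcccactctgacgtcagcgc
Pgk1, chrX:106186850-106187099, plus strand: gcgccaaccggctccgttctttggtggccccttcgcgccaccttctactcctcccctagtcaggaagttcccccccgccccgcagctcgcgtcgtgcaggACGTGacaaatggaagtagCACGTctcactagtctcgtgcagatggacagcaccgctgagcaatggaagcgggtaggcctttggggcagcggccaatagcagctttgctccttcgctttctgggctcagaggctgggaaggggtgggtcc
Hk2, chr6:82774455-82774704, minus strand: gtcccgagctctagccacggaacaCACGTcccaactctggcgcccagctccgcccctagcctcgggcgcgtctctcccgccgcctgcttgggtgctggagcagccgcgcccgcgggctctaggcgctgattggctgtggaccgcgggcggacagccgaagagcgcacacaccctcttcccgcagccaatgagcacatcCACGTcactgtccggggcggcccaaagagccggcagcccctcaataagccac
Pdk2, chr11:95041372-95041621, minus strand: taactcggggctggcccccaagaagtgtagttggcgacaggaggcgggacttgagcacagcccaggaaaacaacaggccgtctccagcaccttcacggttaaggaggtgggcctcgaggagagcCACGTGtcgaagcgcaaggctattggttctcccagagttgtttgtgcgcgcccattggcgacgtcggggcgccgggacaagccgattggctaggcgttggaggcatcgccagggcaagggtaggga
Pdk4, chr6:5496279-5496528, minus strand: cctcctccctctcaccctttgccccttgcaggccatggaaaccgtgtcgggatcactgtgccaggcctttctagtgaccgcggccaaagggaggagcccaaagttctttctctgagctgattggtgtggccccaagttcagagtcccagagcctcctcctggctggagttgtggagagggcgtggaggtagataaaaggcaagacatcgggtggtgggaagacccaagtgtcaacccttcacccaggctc
Ldhb, chr6:142507958-142508207, minus strand: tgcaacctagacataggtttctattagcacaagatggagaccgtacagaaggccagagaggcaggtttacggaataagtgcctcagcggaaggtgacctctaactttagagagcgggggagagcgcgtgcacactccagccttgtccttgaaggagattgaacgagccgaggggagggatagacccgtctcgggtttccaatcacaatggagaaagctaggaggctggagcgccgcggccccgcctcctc
ACGTG was found 5 times in the Ldha window, on both strands, and 2 times each in those of Pgk1, Hk2 and Pdk2. Each CACGTG counts as 2 matches here. The 2 matches of Pdk2 therefore overlap, while those of Pgk1 and of Hk2 lie apart, and in Ldha some overlap. The windows of Pdk4 and Ldhb did not hold these letters, but each held GCGTG, the other core of the same element, 1 time. A promoter was matched for 34 of the 35 members, all but Slc2a3. ACGTG was in 13 of these 34 (38.2%), beside 18.1% of 16369 promoters of genes in the table. It was in 8 of the 19 matched members that were lower in both fibroblast groups and in 3 of the 7 that were higher (Pfkm, Pdk2 and Pdk3), so its presence did not separate the directions. GCGTG, which is not marked in the sequences above, was in 18 of 34 (52.9%) and in 34.7% of all promoters. It was not in the windows of Ldha, Pgk1, Hk2 and Pdk2. A match is a description of letters and not of a bound site.

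The enolase genes could be described only in part. The row of Eno1, the common enolase, was low everywhere, with 13.9, 13.7 and 20.4 in ADSF, 21.2, 19.0 and 17.8 in NDSF and 32.5, 29.1 and 22.4 in ADSM. A second row of the table, Gm5506, which RefSeq names as Eno1b, covers 92.8% of the exon bases of Eno1 on the same strand, so reads of Eno1 could be placed in either row. Gm5506 has 12 exons with 1649 bases on chromosome 4, where Eno1 lies, and 2 exons with 1762 bases on chromosome 18. From which chromosome its reads came was not tested. Gm5506 had 55.6, 80.9 and 61.3 in ADSF and 40.5, 45.0 and 62.0 in NDSF, against 1670, 1268 and 1708 in ADSM. Its log2 difference was -4.54 ± 0.20 in ADSF (adjusted p = 4.67e-09) and -4.96 ± 0.20 in NDSF (adjusted p = 2.3e-09), and the level of Eno1 is therefore uncertain. The log2 difference of the Eno1 row itself was -0.78 ± 0.24 in ADSF (adjusted p = 0.0145), a call lost without ADSM replicate 1 (adjusted p = 0.0612) and with DESeq2 on the recovered reads (adjusted p = 0.0653). In NDSF it was -0.50 ± 0.24 (adjusted p = 0.0840), which passed with upper-quartile scaling (-0.64, adjusted p = 0.0357) and with CPM (-0.70, adjusted p = 0.0114). Eno2, the enolase of neurons, had 18.9, 14.9 and 9.62 in ADSF and 46.9, 24.0 and 13.1 in NDSF, against 5.13, 5.19 and 1.87 in ADSM, and its log2 difference was 1.65 ± 0.47 in ADSF (adjusted p = 0.0092) and 2.43 ± 0.47 in NDSF (adjusted p = 7.46e-04). Eno3, the enolase of muscle, had 14.9, 23.7 and 14.4 in ADSF and 92.03, 80.9 and 44.1 in NDSF, against 150, 47.7 and 92.5 in ADSM. ADSF was below both other groups without overlap, with log2 differences of -2.28 ± 0.41 against ADSM (adjusted p = 4.31e-04) and -1.94 ± 0.41 against NDSF (adjusted p = 0.00927). NDSF and ADSM overlapped for Eno3 (log2 difference -0.34 ± 0.41, adjusted p = 0.466). All 14 tested skeletal muscle markers were likewise lower in ADSF than in NDSF, and Eno3 was highest in the NDSF library with the highest sum of these markers (3096) and lowest in the library with the lowest (1215). In ADSM, 10 of the 18 muscle markers, Acta1 and Myog among them, were at 0 in all 3 libraries, beside Eno3 values of 47.7 to 150. Another, Tnni2, a troponin of fast muscle, had 0.993 to 1.24 in ADSF and 13.1 to 21.0 in NDSF, against 78.6, 109 and 70.1 in ADSM, where it made up most of the muscle sum. The part of muscle RNA in the Eno3 difference was not tested.

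At the lactate step, the H subunit gene Ldhb was nearly confined to the fibroblasts in these libraries. Ldhb (mm10 chr6:142490249-142507943, minus strand), whose subunit dominates in oxidative tissues such as heart, had 70.5, 34.9 and 56.5 in ADSF and 69.0, 62.9 and 45.1 in NDSF, against 0.854, 0 and 0 in ADSM. This is 146 reads in ADSF and 186 in NDSF, against 1 read in ADSM, a ratio of 177 for ADSF (95% exact interval 31.3 to 7040) and of 189 for NDSF (33.5 to 7500), both for counting error only. In the limma fit the adjusted p was 1.24e-07 for ADSF and 8.86e-08 for NDSF. ADSF and NDSF overlapped, and per length Ldhb was 3.14% ± 1.3 of the summed lactate dehydrogenase value in ADSF and 4.77% ± 1.6 in NDSF, so that Ldha remained the main transcript in every group.

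Both lactate exporters were lower in fibroblasts. Slc16a1 (mm10 chr3:104638668-104658462, plus strand), which codes for the monocarboxylate transporter MCT1, had 103, 162 and 121 in ADSF and 168, 177 and 137 in NDSF, against 713, 706 and 768 in ADSM. Its log2 difference was -2.52 ± 0.16 in ADSF (adjusted p = 1.26e-07) and -2.18 ± 0.16 in NDSF (adjusted p = 3.74e-07). Slc16a3, which codes for MCT4, the exporter of highly glycolytic cells, had 48.6, 153 and 130 in ADSF and 80.1, 87.9 and 93.9 in NDSF, against 198, 189 and 219 in ADSM. The ADSF libraries spanned the whole NDSF range for Slc16a3, and none reached ADSM. The log2 difference was -1.02 ± 0.34 in ADSF (adjusted p = 0.0186; 0.0570 without ADSM replicate 3) and -1.20 ± 0.34 in NDSF (adjusted p = 0.00727). Without ADSF replicate 1, the library with 48.6, Slc16a3 was at -0.51 in ADSF against ADSM (adjusted p = 0.0112) and at 0.69 in ADSF against NDSF (adjusted p = 0.0144). Per length, Slc16a1 was 42.9% ± 11 of the pair in ADSF and 51.6% ± 5.0 in NDSF, against 67.8% ± 0.68 in ADSM.

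**Figure D3:**
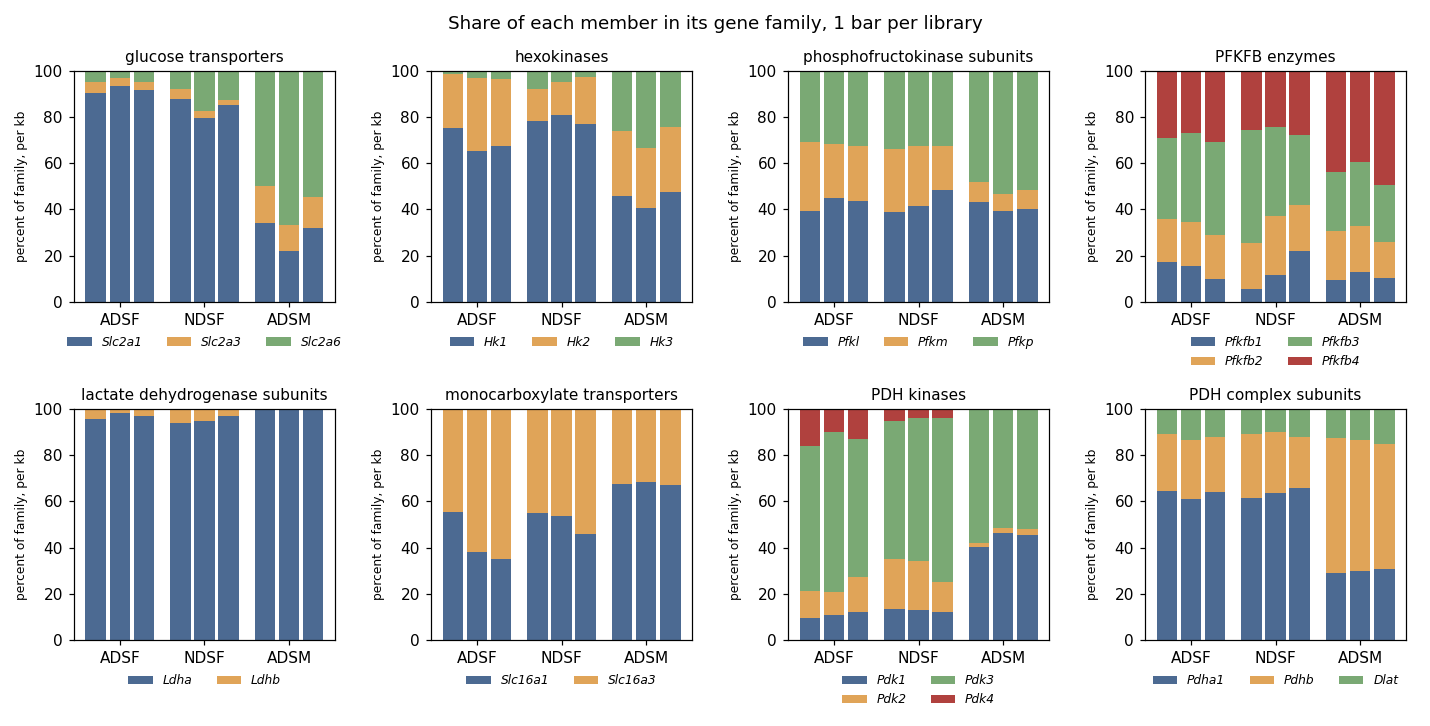
Stacked bars, 1 per library and 3 per group in the order ADSF, NDSF, ADSM, give the percent that each member takes of its family's summed value per kilobase of gene. Slc2a1 takes 79.5 to 93.6% of the glucose transporter sum in the fibroblast libraries and 21.8 to 34.3% in ADSM, Pdk1 9.46 to 13.5% of the PDH kinase sum in the fibroblast libraries and 40.3 to 46.3% in ADSM, and Pdha1 and Pdhb change places.

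The 4 PDH kinases did not move together. Pdk4 (mm10 chr6:5483351-5496278, minus strand), the kinase known for its rise in fasting and with fatty acid use, had 88.3, 51.0 and 64.9 in ADSF and 29.4, 27.0 and 24.4 in NDSF, against 0 in all 3 ADSM libraries. Its 184 reads in ADSF and 85 in NDSF were at least 74.4-fold and at least 28.8-fold above ADSM, taking 3 reads over the 3 ADSM libraries as the limit that a count of 0 allows. Pdk4 was also higher in ADSF than in NDSF without overlap (log2 difference 1.27 ± 0.26, adjusted p = 0.00909). Pdk2 (mm10 chr11:95026258-95041371, minus strand), the most widespread of the kinases, had 41.7, 32.4 and 50.5 in ADSF and 79.2, 93.9 and 50.7 in NDSF, against 4.27, 4.15 and 5.61 in ADSM. Its log2 difference against ADSM was 2.89 ± 0.28 in ADSF (adjusted p = 3.18e-06) and 3.70 ± 0.28 in NDSF (adjusted p = 3.81e-07). Between ADSF and NDSF it was -0.81 ± 0.28 (adjusted p = 0.0609), and -1.06 without NDSF replicate 3 (adjusted p = 0.0108). Pdk3 had 200.5, 204 and 177 in ADSF and 194, 244 and 241 in NDSF, against 120, 84.1 and 103 in ADSM, with log2 differences of 0.93 ± 0.15 in ADSF (adjusted p = 2.37e-04) and 1.15 ± 0.15 in NDSF (adjusted p = 4.11e-05).

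Pdk1, the kinase best known as a target of hypoxia-inducible factor, went the other way. It had 77.4, 82.2 and 92.6 in ADSF and 112, 132 and 107 in NDSF, against 214, 194 and 231 in ADSM, so that no library of a group overlapped with another group. The log2 difference was -1.33 ± 0.13 in ADSF (adjusted p = 4.82e-06) and -0.86 ± 0.13 in NDSF (adjusted p = 1.41e-04) against ADSM. Per length, the summed kinase level was 151 ± 6.9 in ADSF and 177 ± 18 in NDSF, against 94.6 ± 11 in ADSM. Pdk3 was the largest part in every group, with 64.1% ± 4.8 in ADSF and 64.1% ± 5.7 in NDSF, against 53.8% ± 3.6 in ADSM. Pdk1 followed in ADSM with 44.0% ± 3.3, but took only 10.8% ± 1.4 in ADSF and 12.9% ± 0.65 in NDSF. The rest of the fibroblast sum was Pdk2, with 12.1% ± 2.8 in ADSF and 18.6% ± 4.7 in NDSF, and Pdk4, with 12.9% ± 3.0 in ADSF and 4.45% ± 0.70 in NDSF.

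The subunits of the PDH complex did not move together. Pdha1, the catalytic alpha subunit that the kinases phosphorylate, had 685, 661 and 654 in ADSF and 694, 757 and 916 in NDSF, against 358, 300.0 and 355 in ADSM. Pdhb, its beta partner in the same enzyme, had 139, 149 and 132 in ADSF and 167, 168 and 167 in NDSF, against 388, 307 and 338 in ADSM. The 2 partners were thus on opposite sides, with Pdha1 higher and Pdhb lower in every fibroblast library than in any ADSM library. For Pdha1 the log2 difference was 0.98 ± 0.12 in ADSF (adjusted p = 2.29e-05) and 1.22 ± 0.12 in NDSF (adjusted p = 3.67e-06), and for Pdhb it was -1.29 ± 0.11 in ADSF (adjusted p = 1.65e-06) and -1.03 ± 0.11 in NDSF (adjusted p = 9.23e-06). Dlat, the acetyltransferase core, was not called and lay at 171 to 213 in ADSF, 175 to 242 in NDSF and 197 to 256 in ADSM. It was called lower in ADSF with upper-quartile scaling (log2 difference -0.41, adjusted p = 0.0305) and with CPM (-0.58, adjusted p = 0.00605), and in NDSF with CPM (-0.46, adjusted p = 0.0203) and without NDSF replicate 3 (-0.35, adjusted p = 0.0411). Per length, Pdha1 was 63.2% ± 1.9 of the 3 subunits in ADSF and 63.7% ± 2.0 in NDSF, against 29.8% ± 0.79 in ADSM, while the summed level was 382 ± 11 in ADSF, 447 ± 51 in NDSF and 410 ± 42 in ADSM. Pdha1 overlaps Map3k15 on the opposite strand over 21.8% of its exon bases, and the sources used here do not say whether the counting used strand. Map3k15 was at most 9.96 in any library. The part of this overlap in the Pdha1 values was not tested. Pdha1, Pdk3 and Pgk1 lie on the X chromosome, where the fibroblast and macrophage libraries also differed in Xist, and the part of this in their differences cannot be told apart from cell type.

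**Figure D4:**
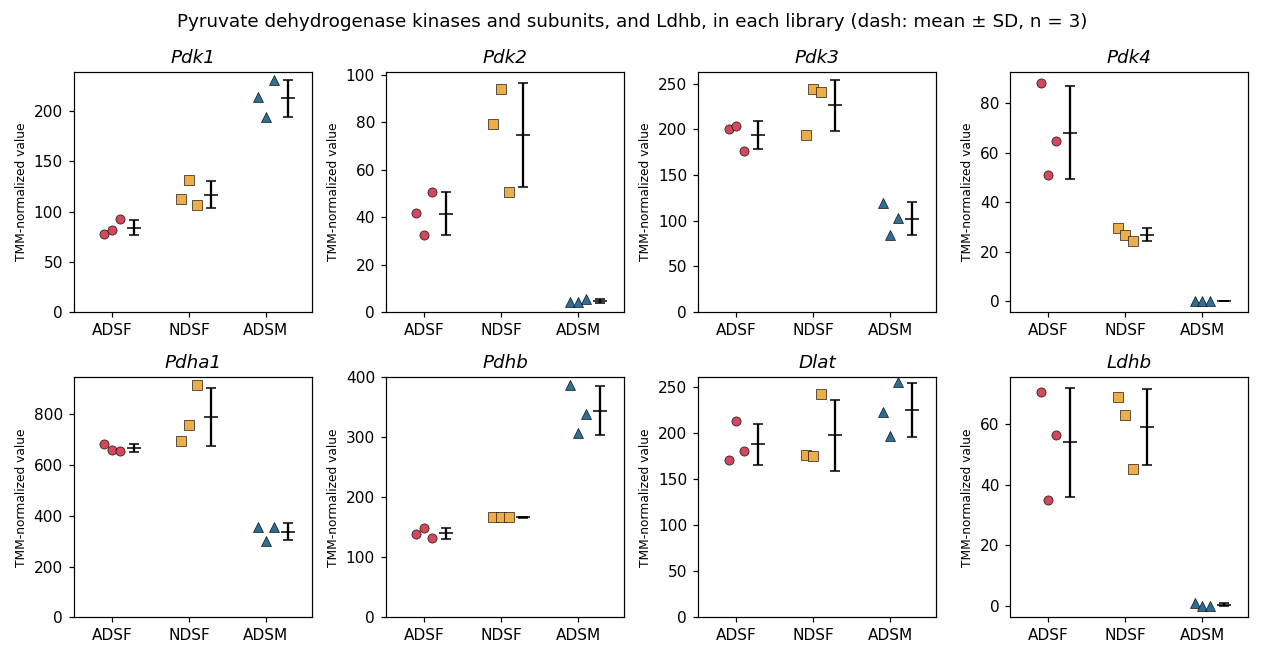
TMM-normalized value on a linear axis for the 4 PDH kinases, 3 PDH subunits and Ldhb, with 1 symbol per library and a dash with bars for the mean ± SD (n = 3) of ADSF, NDSF and ADSM from left to right. Pdk2, Pdk4 and Ldhb lie near or at 0 in ADSM, Pdk1 and Pdhb are highest in ADSM, and Pdk4 is the only one of the kinases with ADSF above NDSF without overlap.

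Between arthritic and normal ankle fibroblasts, 9 of the 35 members were called, beside 21.2% of all tested genes. Hk2, Gpi1, Gapdh, Pkm, Ldha and Pdk4 were higher in ADSF, and Slc2a6, Eno3 and Pdk1 were lower. The values in each library stand above. The groups did not overlap in any of the 9, and over all 35 members 8 were higher and 6 lower without overlap, beside 18.4% and 19.7% of all tested genes. Hk2, Gapdh, Pdk4 and Eno3 kept their call in every alternative processing and without each library in turn. For Gapdh the log2 difference was 0.79 ± 0.13 (adjusted p = 0.00318). The other 5 were smaller or less stable. The log2 difference was 0.39 ± 0.12 for Gpi1 (adjusted p = 0.0413), 0.42 ± 0.12 for Pkm (adjusted p = 0.0384), 0.49 ± 0.16 for Ldha (adjusted p = 0.0488), -0.47 ± 0.13 for Pdk1 (adjusted p = 0.0319) and -1.19 ± 0.31 for Slc2a6 (adjusted p = 0.0239). Gpi1 lost its call without each of ADSF replicates 2 and 3, NDSF replicates 1, 2 and 3 and ADSM replicates 1 and 3, with an adjusted p of up to 0.15. Pkm lost it without any ADSF replicate, NDSF replicate 1 or 2 or ADSM replicate 3 (up to 0.147), and Ldha without any ADSF replicate, NDSF replicate 1 or 2 or ADSM replicate 1 or 3 (up to 0.177). Pdk1 lost it without ADSF replicate 1 or 2 or NDSF replicate 1 or 2 (up to 0.134), and Slc2a6 without ADSF replicate 1 or 2 or NDSF replicate 2 (up to 0.102). Changes of processing removed these calls too. With only the 2 groups in the model all 5 were lost, and with a block for replicate number Gpi1, Pkm and Pdk1 were. Ldha also lost its call with a pseudocount of 0.5, no filter, CPM and edgeR. Gpi1 also lost it with upper-quartile scaling and CPM, Pdk1 with DESeq2 and Slc2a6 with edgeR.

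Leaving out 1 library moved the number of members called between ADSF and NDSF to between 4 (without ADSF replicate 2 or NDSF replicate 2) and 12 (without NDSF replicate 3, the library that stood apart), and it was 5 without NDSF replicate 1. The number called higher was 3 without ADSF replicate 2 or 3, NDSF replicate 1 or 2 or ADSM replicate 3, and the number called lower was 1 without ADSF replicate 1 or 2 or NDSF replicate 2. Without NDSF replicate 3, Pgk1 (log2 difference 0.57, adjusted p = 0.0122) and Pgam1 (0.66, adjusted p = 0.003) joined the enzymes that were higher in ADSF. The 8 enzymes of the chain were chosen by hand and were its most abundant members, without the phosphofructokinase and enolase steps. Of these 8, 4 were called higher in ADSF than in NDSF and none lower, beside 9.88% and 11.3% of all tested genes. Their log2 differences lay between -0.07 (Aldoa) and 0.79 (Gapdh). Markers of other cells also differed in this comparison. All 14 tested skeletal muscle markers, 2 of 12 macrophage markers (Cd14 and Ptprc, at log2 differences of -1.23 and -1.26, adjusted p = 0.0257 and 0.0270), 2 of 3 tested endothelial markers and 3 of 12 fibroblast markers were lower in ADSF, and none of these lists had a member that was higher. Of 5 tested chondrocyte markers, 1 was higher in ADSF (Col2a1, log2 difference 2.09, adjusted p = 0.0056). Another 1 was lower (Comp, -1.13, adjusted p = 0.0242), and 3 were not called. The 8 osteoclast markers summed to 449, 1307 and 463 in ADSF, against 854, 829 and 607 in NDSF. Most of the NDSF sums was Ctsk, at 803, 793 and 586. Ctsk had 433, 624 and 445 in ADSF and 1.87 to 4.15 in ADSM. In ADSF replicate 2, at 1307, Mmp9 was 351 and Acp5 251, against 0 and at most 16.8 in the other ADSF libraries. ADSF replicate 2 was also the ADSF library with the highest Hk2, Gpi1, Gapdh and Pkm values. The part of these cells in the differences of the members was not tested. The study's methods give a TruSeq kit for ADSF and ADSM and a NEBNext kit for NDSF, while the labels give the TruSeq kit for all, so kit and ankle cannot be told apart here.

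Of 7 tested genes of the pentose phosphate pathway, which draws on glucose-6-phosphate, 6 were lower in ADSF and 7 in NDSF than in ADSM, and none was higher, with a median log2 difference of -1.41 in each, beside 30.1% and 32.0% of all tested genes called lower and 41.0% and 43.3% called higher. These shares are also the background for the comparisons of the next lists with ADSM, and no difference between lists was tested. Between ADSF and NDSF, 3 of the 7 pentose phosphate genes were higher and 1 was lower, beside 9.88% and 11.3% of all tested genes. These 2 shares are the background for the next lists between ADSF and NDSF as well. Of 22 tested genes of glycolysis and pyruvate handling outside the 35, among them other sugar transporters, the mitochondrial pyruvate carrier and PDH phosphatases, 11 were higher and 8 lower in ADSF and 10 higher and 6 lower in NDSF than in ADSM, and 1 was higher and 4 were lower in ADSF than in NDSF. Of 12 tested genes of glycogen handling, 5 were higher and 2 lower in ADSF and 4 higher and 2 lower in NDSF than in ADSM. Of 14 tested targets of hypoxia-inducible factor outside glycolysis, 9 were higher and 1 lower in ADSF and 10 higher and 3 lower in NDSF than in ADSM, at a median log2 difference of 1.00 in ADSF and 1.51 in NDSF. Of 21 tested regulators of glycolytic genes, 14 were higher and 4 lower in ADSF and 14 higher and 3 lower in NDSF than in ADSM. In ADSF compared with NDSF, 1 glycogen gene was higher and 2 were lower. In the same comparison 3 targets of hypoxia-inducible factor were higher and 4 lower, and 1 regulator was higher and 3 were lower.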

How the data were processed

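RNA-seq libraries of cultured ankle cells (3 each of ADSF, NDSF and ADSM) were grouped by their deposited labels. The authors mapped reads to mm10 with TopHat and name Cufflinks, with no versions; the sources used here name no counting tool and do not say whether strand was used. In the main deposited table each gene has a TMM signal, that is, its read count scaled by 1 factor for the library. The value of each read was recovered from the smallest value above 0, and 100% of the values were whole multiples within 0.001. The FPKM values deposited by the authors for ADSM and ADSF served only as an alternative for family shares. The deposited q-values of the authors' own comparison were not used. Unused per-sample columns numbered 0.

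The 35 members and the other lists were chosen with earlier results of these data known. limma 3.58.1 (R 4.3.3, trended variance) was fitted to log2(value + 1) of the 11889 genes that reached a value of 10 in 3 or more of the 9 libraries, with 1 mean per group, and p-values were adjusted over all of them by Benjamini-Hochberg at 0.05. Fold changes on this scale understate low genes. An exact permutation test of 3 against 3 libraries cannot go below 0.1 and was not used. Alternatives were pseudocounts of 0.5 and 5, no filter, a minimum of 30, upper-quartile scaling, CPM of recovered reads, edgeR 4.0.16, DESeq2 1.42.0, only the compared groups, a replicate block, and leaving out each library. Family shares used values per kb of the deposited gene length. All members are described: those called in at least 1 comparison with every library, the others by range. Promoters are from RefSeq (GRCm38.p6), primers from the study's primer list. The fit was tested on simulated data with known changes.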

Additional observations from a re-analysis of the deposited data

How the results depend on the processing

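Against ADSM the counts were stable: 27 of the 29 members called in ADSF and 27 of the 28 called in NDSF passed in every alternative that could be run. The number of members called was 27 to 32 in ADSF and 27 to 31 in NDSF over the alternatives. Of all genes, edgeR on the recovered reads called 8382 in ADSF against ADSM, 8951 in NDSF against ADSM and 2565 between ADSF and NDSF, beside 8451, 8959 and 2518 with limma. Between ADSF and NDSF only 4 of the 9 called members passed in every alternative. With only these 2 groups in the model 4 members were called, 3 higher and 1 lower, and 748 of all genes were higher. Leaving out each library in turn gave 4 to 12 members called, 3 to 8 higher and 1 to 4 lower, and 952 to 4255 of all genes called, 390 to 2169 higher and 562 to 2086 lower. The cause was not tested.

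The deviations of same-numbered libraries from their group means had correlations of -0.14 to 0.178. With 3 libraries per group and no stated ankle for each library, these values cannot show whether the replicate numbers pair samples. With a replicate block, 6 members were called between ADSF and NDSF, and the adjusted p was 0.0687 for Gpi1, 0.0721 for Pkm and 0.0519 for Pdk1. The block changed no call against ADSM.

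Upper-quartile scaling and CPM of recovered reads lowered the median of all genes against ADSM by more than 0.1 (-0.154 and -0.327 in ADSF, -0.14 and -0.267 in NDSF, on the log2 scale). The members whose log2 difference changed sign were not called in that comparison before or after, and all of these values were close to 0 or rested on 1 library. In ADSF against ADSM, under CPM, Slc2a1 was -0.12 and Pfkfb1 -0.10. In NDSF against ADSM, Pfkfb3 was -0.06 with upper-quartile scaling, -0.18 under CPM and -0.18 without NDSF replicate 1, and Eno3 was 0.05 without ADSM replicate 1. Between ADSF and NDSF, Pfkm was 0.00 with upper-quartile scaling, -0.05 under CPM, -0.01 with DESeq2 and -0.07, -0.05 and -0.21 without ADSF replicate 1, ADSF replicate 3 and NDSF replicate 3. Without ADSF replicate 1, Pfkl was 0.02, Aldoa 0.03, Aldoc 0.41 and Dlat 0.00. Aldoc was 0.06 and 0.12 without NDSF replicates 1 and 2, Ldhb 0.12 and Slc16a3 -0.13 without ADSF replicate 2, Slc16a3 -0.01 without ADSF replicate 3 and Dlat 0.09 without NDSF replicate 3. At the other end, leaving out single libraries gave up to 0.32 for Pfkfb3 and down to -0.76 for Eno3 in NDSF against ADSM, and between ADSF and NDSF up to 0.16 for Pfkm and 0.69 for Slc16a3 and down to -0.53 for Aldoc, -0.38 for Ldhb and -0.16 for Dlat.

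The leading member of a family per kb was the same in 100% of the families and groups with the authors' FPKM (ADSF and ADSM only), in 86.7% without length correction, where the PFKFB enzymes (NDSF and ADSM), the monocarboxylate transporters (ADSF) and the PDH kinases (ADSM) changed their leader, and in 96.7 to 100% without single libraries. The share values themselves were less stable than the leaders. A share moved by at least its SD in 48 of 87 cases without length correction and in 17 of 56 with the authors' FPKM. Without single libraries this held in 3 of 261 cases. At 2380483 to 3351184 reads per library, members under a value of 10, such as Pfkfb1, Aldoc in fibroblasts and Eno2 in ADSM, rest on few reads.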
